A study of Mus musculus with 401 samples.

Results

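The 10 genes described here carry glucose into a cell and break it down to lactate: Slc2a1, Hk1, Hk2, Pfkp, Pfkl, Aldoa, Tpi1, Pgk1, Pkm and Ldha. They were chosen by name, as the rows of their Ensembl identifiers among 43633 genes listed in either of 2 tables of read counts, and all 10 have a row in both tables. They had been put together as glycolysis genes that cumulus cells supply to the oocyte. Transfer between the cells was not measured. For RNA levels, 9 of the 10 took a higher share of the library in cumulus cells than in oocytes in every class of mice, and Slc2a1 did not.

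The study took oocyte–cumulus complexes from fully grown follicles of female B6D2F1 mice (C57BL/6 x DBA/2), and made 1 library from each single oocyte and 1 from the pool of cumulus cells around it. The first set held complexes from young (2 months), middle (9 months) and old (14 months) mice fed ad libitum (AL), and from mice of 9 months under calorie restriction (CR) that was begun stepwise in adulthood, all after hormonal hyperovulation. The second set held AL mice of 2, 4, 9 and 14 months after hyperovulation, and AL mice of 2 months without it (2moNoH). Hyperovulation was an injection of equine chorionic gonadotropin or of a commercial preparation, with the ovaries collected afterwards and the complexes handled in a medium that keeps oocytes from resuming meiosis, and which injection each mouse had is not given in the sources used here. The classes came from 2 (young), 4 (middle), 2 (old, 1 of these labels joins a pair of mice) and 3 (CR) mouse labels in the first set, and from 5 (2 months), 8 (4 months), 4 (9 months), 5 (14 months) and 8 (2moNoH) mice in the second.

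Of 401 libraries, 399 were used. The complex left out, from a middle mouse, had an oocyte library with more cumulus marker RNA than oocyte marker RNA. Total counts ran from 559305 to 4536690 in the oocyte libraries of the first set (n = 73), from 848243 to 2501005 in its cumulus libraries (n = 71), and from 1238441 to 2583456 (n = 127) and 510029 to 1147286 (n = 128) in those of the second. All 10 cumulus markers checked (Fshr, Amhr2, Foxl2 and others) averaged at least 1 CPM (read counts scaled to a common library size with TMM normalization, the unit used throughout) in the cumulus libraries of every class, and the mean sum of 13 oocyte markers (Zp1 to Zp3, Gdf9, Bmp15 and others) was 4.15 to 21.7 CPM in cumulus cells against 20200 to 27500 in oocytes. Oocyte libraries did hold some cumulus marker RNA. Its sum, here scaled by total counts without TMM, exceeded 5% of the class's median cumulus library in 18 of 73 oocytes of the first set (3 young, 4 middle, 7 old and 4 CR) and in 0 of 127 of the second. The cumulus marker shares given below are scaled in the same way. In TMM-normalized CPM the old oocyte median was 5.83% of the cumulus median, so the number over 5% depends on the scaling.

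Glycolysis turns 1 glucose into pyruvate in a chain of cytosolic steps, and lactate dehydrogenase converts pyruvate to lactate and back. A growing mouse oocyte uses glucose poorly and takes up pyruvate, which the cumulus cells around it make and hand over. The oocyte in turn secretes GDF9, BMP15 and FGF8. Of these, BMP15 and FGF8 acting together are known to raise glycolytic transcripts in cumulus cells. Slc2a1 encodes the glucose transporter GLUT1. Hk1 and Hk2 encode hexokinases, which trap glucose as glucose 6-phosphate. Pfkp and Pfkl encode the platelet and liver types of phosphofructokinase, the committed and most regulated step. Aldoa (aldolase A) splits the hexose, and Tpi1 (triosephosphate isomerase) interconverts the resulting triose phosphates. Pgk1 (phosphoglycerate kinase) and Pkm (the muscle-type pyruvate kinase gene) each make ATP, and Ldha encodes the M subunit of lactate dehydrogenase.

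In GRCm38, Slc2a1 (ENSMUSG00000028645) lies at chr4:119108711-119137983 on the plus strand and Ldha (ENSMUSG00000063229) at chr7:46841475-46855627 on the plus strand. Aldoa (ENSMUSG00000030695) lies on the same chromosome as Ldha, at chr7:126795234-126800751 on the minus strand, and a second row also named Aldoa had at most 8.5 counts in any library of the first set and was left aside. Hk2 (ENSMUSG00000000628, chr6:82725025-82774454) and Tpi1 (ENSMUSG00000023456, chr6:124810586-124814296) share a chromosome and are both on the minus strand. Hk1 (ENSMUSG00000037012, chr10:62268855-62379908) and Pfkl (ENSMUSG00000020277, chr10:77986947-78010083) do so as well. Pfkp (ENSMUSG00000021196) is at chr13:6579768-6648777 on the minus strand, Pkm (ENSMUSG00000032294) at chr9:59656368-59679375 on the plus strand, and Pgk1 (ENSMUSG00000062070) at chrX:106187100-106203699 on the plus strand. Several have processed copies elsewhere in the genome, and the authors shared reads that map to many places as fractions: in the first set 97.3% of the nonzero counts of Pgk1 and Pkm, 93.8% of Ldha, 83.6% of Tpi1 and 78.1% of Aldoa were not whole, against 0% for Hk2, 1.47% for Hk1 and 8.22% for Pfkl. For Pfkp and Slc2a1 the shares were 50 and 45.9%, and 47.8 and 49.4% in the second set. These shares count values with a fractional part, not reads, so the number of shared reads is not known from them. For these 7 genes, all but Hk1, Hk2 and Pfkl, many values therefore hold some reads whose origin is uncertain.

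Glycolytic genes are textbook targets of the hypoxia-inducible factors, which bind the core ACGTG and also its variant GCGTG. The members moved together in cumulus cells (see the account of hyperovulation), and their promoters were searched for these cores. The 250 bases before a RefSeq start of Ldha (chr7:46845554-46845803, plus strand), Pgk1 (chrX:106186850-106187099, plus strand) and Hk2 (chr6:82774455-82774704, minus strand) are shown, GRCm38.p6, 5′ to 3′ on the gene's strand. These are the windows with repeated ACGTG matches. Tpi1, which followed the other members closely, had no ACGTG. A link between the cores and the levels was not tested. Capitals mark both cores and the cyclic AMP response element TGACGTCA on either strand.

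Ldha: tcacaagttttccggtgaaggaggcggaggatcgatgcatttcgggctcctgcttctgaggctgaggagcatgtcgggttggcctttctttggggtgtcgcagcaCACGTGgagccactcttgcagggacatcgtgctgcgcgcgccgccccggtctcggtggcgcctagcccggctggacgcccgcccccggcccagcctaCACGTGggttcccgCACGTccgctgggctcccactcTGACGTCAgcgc

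Pgk1: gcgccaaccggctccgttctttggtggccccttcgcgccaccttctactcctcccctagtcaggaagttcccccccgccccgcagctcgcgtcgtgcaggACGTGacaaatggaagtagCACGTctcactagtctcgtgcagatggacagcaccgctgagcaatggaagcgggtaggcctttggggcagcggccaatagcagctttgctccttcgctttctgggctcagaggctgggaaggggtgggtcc

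Hk2: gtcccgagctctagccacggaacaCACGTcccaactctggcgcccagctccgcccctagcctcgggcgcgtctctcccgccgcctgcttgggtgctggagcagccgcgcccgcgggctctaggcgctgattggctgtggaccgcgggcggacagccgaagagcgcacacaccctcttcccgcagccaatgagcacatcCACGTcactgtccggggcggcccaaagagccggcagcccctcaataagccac

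The Ldha window shown held the densest run of matches, with ACGTG on either strand at positions from -145 to -30, counted back from the start, and with the palindrome CACGTG, which contains ACGTG on both strands, at -145 to -140 and at -48 to -43. TGACGTCA stood at -12 to -5. Ldha has a second RefSeq start, not shown, whose window (chr7:46846832-46847081) held GCGTG at -59 to -55 and no ACGTG. Pgk1 held ACGTG at -150 to -146 and -131 to -127, and Hk2 at -226 to -222 and -52 to -48. RefSeq lists 15 starts for the 10 members (2 windows of Aldoa overlap). ACGTG occurred in 7 of the 15 windows, those of 6 members, and in 16.6% of all 32851 promoter windows of the same length. GCGTG occurred in 5 windows and in 28.2% of all, TGACGTCA in 1 and in 1.55%, and CACGTG in 1 and in 6.02%. GGGCGG, the core of a GC box, occurred in 9 windows, of 8 members, and in 32.7% of all. These matches are letters in a window and were not measured as binding.

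To ask which side of the complex holds these transcripts, cumulus and oocyte libraries were compared within each of the 9 classes. CPM values are a share of each library, and oocyte and cumulus RNA were diluted differently when the libraries were made, so they say nothing of transcripts per cell. In a pool of cells, more of a cell type and more RNA per cell cannot be told apart. The other 9 members than Slc2a1 were higher in cumulus cells in all 9 classes, where "called" means an adjusted p under 5% in edgeR's quasi-likelihood test over all genes (libraries are the units, and several share a mouse). They were Hk1, Hk2, Pfkp, Pfkl, Aldoa, Tpi1, Pgk1, Pkm and Ldha. The share of all tested genes called higher in cumulus cells was 44.9% (young), 42.9% (middle), 41.7% (old), 45% (CR), 46.1% (2 months), 48.7% (4 months), 45.1% (9 months), 44.5% (14 months) and 47.6% (2moNoH), since the cell types differ in most of their transcriptome.

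**Figure D1:**
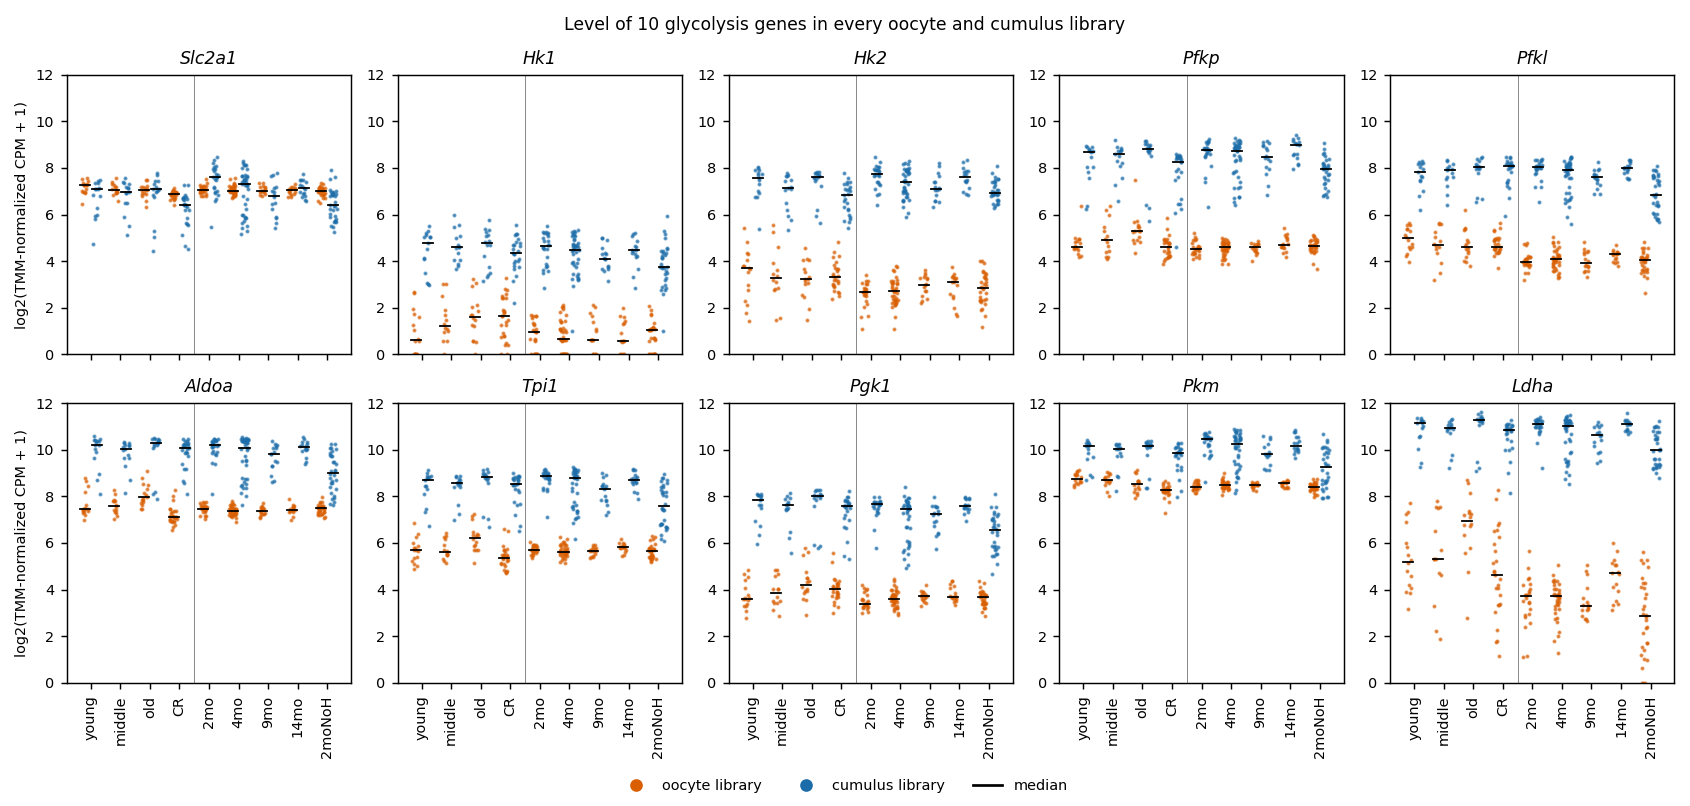
Level of each of the 10 genes in every library, as log2 of TMM-normalized CPM plus 1 (vertical axis), for oocytes (orange) and cumulus cells (blue) in the 9 classes of mice (horizontal axis; the grey line parts the first set from the second). Black bars are medians: Ldha medians in cumulus cells were 1003 to 2453 CPM and in oocytes 6.27 to 124 CPM, while those of Slc2a1 lay side by side.

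Ldha reached the widest gap of any member. At 2 months its cumulus libraries ran from 585 to 2709 CPM with a median of 2217 (mean 2097 ± 463, SD, n = 24), and its oocyte libraries from 1.15 to 49.0 with a median of 12.1 (mean 13.3 ± 10.1, n = 24). No cumulus library came near an oocyte library, and the log2 difference was 7.26 (SE 0.20), a fold of 153. The difference of Ldha was smallest in old mice, at 3.85 (SE 0.37), a fold of 14.4, where oocyte libraries reached 421 CPM. In that class another member had a larger log2 difference (4.10). Every cumulus library was above every oocyte library for Ldha in 8 of 9 classes. The share of all genes without such overlap in that direction was 12.8% (young), 12.5% (middle), 8.48% (old), 10.1% (CR), 13.5% (2 months), 10.9% (4 months), 15.3% (9 months), 15.8% (14 months) and 10.9% (2moNoH).

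The oocyte's Ldha signal moved with its cumulus marker RNA. In the first set, the 18 oocytes over 5% had a median of 183 CPM and the others 26.5 CPM, and Spearman's rho between Ldha and the cumulus marker share was 0.891 over 73 oocytes, which share libraries and depth. In the second set, with no oocyte over 5%, rho was 0.457 over 127 oocytes. In TMM-normalized CPM, the median oocyte level of Ldha was 0.546 to 5.07% of the median cumulus level over the classes, and the summed cumulus markers were 0.724 to 5.83%. Single markers were uneven: Nr5a2 was at 11.7 to 18.2% and Kitl at 10.9 to 42.3%. Each other marker was at 8.71% or less, such as Gja1 (0.121 to 6.08%) and Inha (0.331 to 5.69%). At 2 months Nr5a2 alone averaged 65.5 of the 102 CPM of summed markers in oocytes. The part of carried-over cumulus RNA in the oocyte level of Ldha was not tested. Pgk1 (25.4 against 12.5 CPM), Tpi1 (82.5 against 44.4) and Aldoa (296 against 164) also had higher medians in the 18 oocytes. So did Hk1 (4.36 against 1.39), Hk2 (14.3 against 8.17), Pfkp (42.8 against 25.5) and Pfkl (38.7 against 23.3). Slc2a1 (126 against 125) and Pkm (384 against 354) were close in both.

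The hexokinases differed in level and shared the direction. Hk2 at 2 months ran from 83.1 to 350 CPM in cumulus cells (mean 208 ± 63.5, n = 24) and from 1.15 to 9.57 in oocytes (mean 5.32 ± 2.01, n = 24), with a log2 difference of 5.25 (SE 0.15), and over the classes its fold was 9.57 to 38.1. Hk1 was the lowest member in both cell types. It ran from 6.21 to 45.2 CPM in cumulus cells at 2 months (mean 24.2 ± 10.7) and from 0 to 2.22 in oocytes (mean 0.929 ± 0.799), where 7 of 24 libraries had no read of it. Cumulus libraries of Hk2 stood above all oocyte libraries in 7 classes and those of Hk1 in 5.

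The phosphofructokinases were less far apart. Pfkl was 91.6 to 328.5 CPM in cumulus cells at 2 months (mean 250 ± 60.8) and 8.24 to 26.8 in oocytes (mean 15.5 ± 4.54), and it was the only member whose cell types did not overlap in any of the 9 classes. Its fold was 7.69 to 15.9 over the classes. Pfkp was 79.2 to 599 CPM in cumulus cells at 2 months and 16.3 to 36.4 in oocytes, its fold was 8.67 to 17.9, and its cell types did not overlap in 6 classes.

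The later steps varied in how much they kept in oocytes. Pgk1 was 8.3-fold to 17.5-fold higher in cumulus cells, close to the phosphofructokinases. Tpi1 was 4.58-fold to 8.38-fold higher and Aldoa 3.33-fold to 6.28-fold. Aldoa at 2 months was 273 to 1408 CPM in cumulus cells (mean 1103 ± 279) and 128.5 to 216 CPM in oocytes (mean 177 ± 23.4). Pkm had the smallest difference of the 9, 1.98-fold (2moNoH) to 3.69-fold (2 months), with 387 to 1706 CPM in cumulus cells at 2 months (mean 1283 ± 335) and 281 to 414 in oocytes (mean 345 ± 38.2). Its median in oocytes was 23.8 to 56.3% of that in cumulus cells. Every cumulus library was above every oocyte library in 7 classes for Pgk1, 4 for Tpi1, 3 for Aldoa and 2 for Pkm. Of 197 complexes with both libraries, the cumulus library was above its own oocyte in 197 for Hk1, Hk2, Pfkl, Tpi1, Pgk1 and Ldha, in 196 for Pfkp and Aldoa and in 182 for Pkm.

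**Figure D2:**
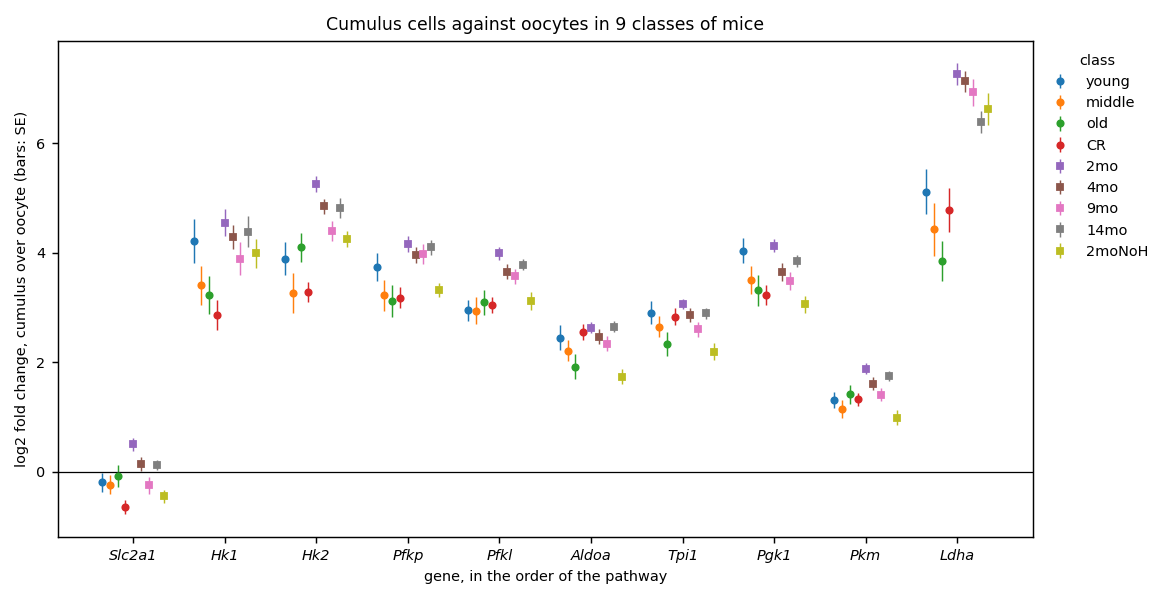
Fitted log2 fold change of cumulus cells over oocytes (vertical axis, bars are standard errors) for the 10 genes in pathway order (horizontal axis), 1 point per class (circles first set, squares second). The 9 genes other than Slc2a1 lie above 0 in every class, from 0.99 (Pkm, 2moNoH) to 7.26 (Ldha, 2 months), and Slc2a1 lies between -0.65 and 0.50, with signs that turn under total-count scaling in 5 classes.

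Slc2a1, the glucose transporter, stood apart from the enzymes. At 2 months it ran from 43.5 to 354 CPM in cumulus cells (mean 192 ± 77.9, n = 24) and from 110 to 182 CPM in oocytes (mean 134 ± 17.45, n = 24). The groups overlapped in all 9 classes, and the cumulus library was above its own oocyte in 84 of 197 complexes. At 2 months Slc2a1 was higher in cumulus cells by 0.50 (SE 0.12, adjusted p = 0.000213 by edgeR), a call lost when counts were summed per mouse (0.37, adjusted p = 0.113). It was lower in cumulus cells in CR mice (-0.65, SE 0.13, adjusted p = 6.1e-06, with 42.9% of genes lower) and in 2moNoH mice (-0.45, SE 0.12, adjusted p = 0.000302, with 41.4% lower). These signs depend on how libraries are scaled. Scaling by total counts moved the median difference of all genes up by 0.29 to 0.61 on the log2 scale, and it took Slc2a1 to 0.01 in CR (adjusted p = 0.947) and to -0.09 in 2moNoH (adjusted p = 0.458). It turned the sign in young (-0.19 to 0.13), middle (-0.23 to 0.33), old (-0.08 to 0.36) and 9-month mice (-0.25 to 0.06), none called either way, and brought calls at 4 months (0.14 to 0.52) and 14 months (0.12 to 0.47). With each complex as a block in a paired fit, Slc2a1 was also called lower in cumulus cells in young (-0.44, adjusted p = 0.0297) and 9-month mice (-0.37, adjusted p = 0.0277) and was -0.02 at 4 months, so that 10 members were called in the young, CR, 2-month, 9-month and 2moNoH classes and 9 in the others. Summed per mouse, it was called lower in young (-0.67, adjusted p = 0.000563) and 9-month mice (-0.35, adjusted p = 0.0437), and with no filter on low counts in young mice (-0.42, adjusted p = 0.0304). The other 9 members kept their direction under both scalings.

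Levels between genes are compared per kilobase of annotated transcript (CPM/kb). In cumulus cells at 2 months the order of mean levels was Ldha (634), Aldoa (315), Pkm (256.5), Tpi1 (159), Pgk1 (84.3), Slc2a1 (54.7), Pfkl (37.4), Hk2 (34.9), Pfkp (30.9) and Hk1 (2.84). Aldoa and Pkm overlapped within their SDs, and so did Pfkl, Hk2 and Pfkp. In oocytes the order was Pkm (69.0), Aldoa (50.5), Slc2a1 (38.3), Tpi1 (18.8), Pgk1 (4.74), Ldha (4.01), Pfkl (2.32), Pfkp (1.71), Hk2 (0.892) and Hk1 (0.109). Ldha was thus the first of the 10 in cumulus cells and the sixth in oocytes, where its range overlapped that of Pgk1.

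The lactate dehydrogenase gene in use differed between the cell types. Ldhb, which encodes the H subunit, averaged 1610 CPM/kb in oocytes at 2 months against 4.01 for Ldha, and in cumulus cells 55.1 against 634. Ldha made up 0.246% ± 0.183 (SD, n = 24) of the pair in these oocytes and 91.0% ± 9.40 (n = 24) in these cumulus cells. Ldha was above Ldhb in 0 oocyte libraries of any class and in 23 of 24 cumulus libraries at 2 months. Over the classes the share was 0.206 to 7.17% in oocytes, highest in old mice (7.17% ± 7.61, n = 16), and 75.9 to 94.0% in cumulus cells, lowest in 2moNoH mice (75.9% ± 13.5, n = 32). In old mice 7 of the 16 oocytes were over 5% cumulus marker RNA, and Ldhb in oocytes was 1210 ± 874 CPM/kb. The part of either in the Ldha share was not tested. For hexokinase the cell types had like shares: Hk2 made up 82.2 to 92.2% of Hk1 plus Hk2 in oocytes and 87.3 to 92.8% in cumulus cells. For phosphofructokinase, Pfkp was 23 to 38.2% of Pfkp plus Pfkm (the muscle type) in oocytes and 64.3 to 82.0% in cumulus cells. Aldoa was 97.3 to 99.8% of Aldoa plus Aldoc in both.

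**Figure D3:**
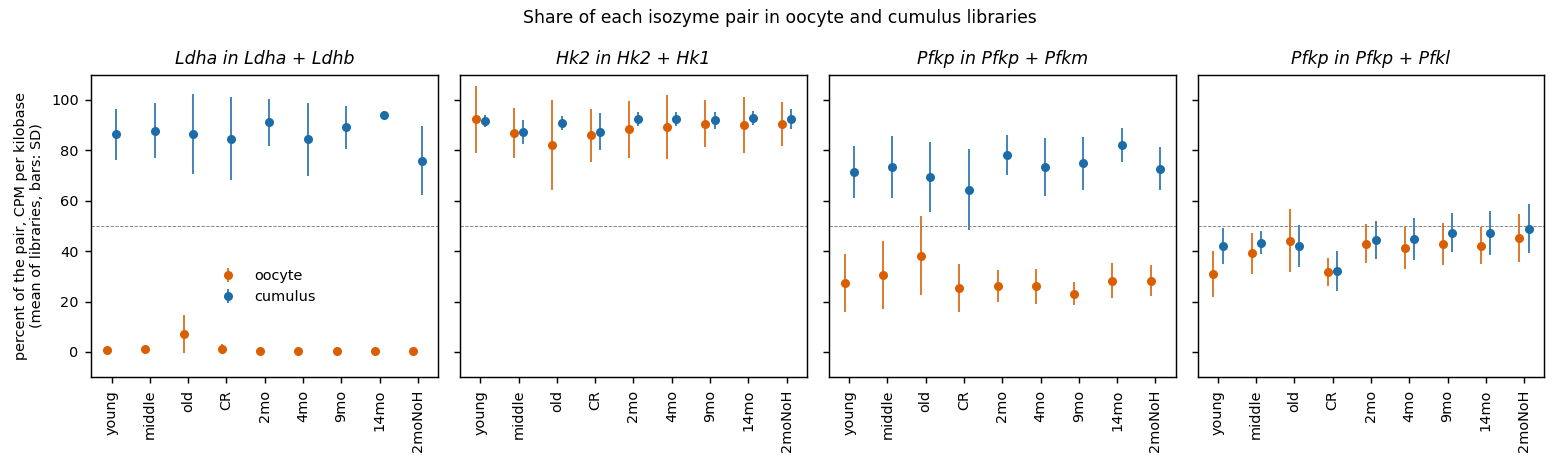
Share of the first gene in each of 4 isozyme pairs (vertical axis, percent of the pair's summed CPM per kilobase, mean of libraries with SD bars) in oocytes (orange) and cumulus cells (blue) of the 9 classes (horizontal axis). Ldha is 0.206 to 7.17% of the Ldha and Ldhb pair in oocytes and 75.9 to 94.0% in cumulus cells, whereas the Hk2 share is above 80% in both.

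Other genes of the pathway were listed as well. Of 19 further glycolysis genes, 12 were higher and 4 lower in cumulus cells at 2 months, and over the classes, where 15 to 19 could be tested, 9 to 12 were higher and 4 to 7 lower. Slc16a3, a lactate exporter, was 4.19 to 7.62 higher on the log2 scale in the 9 classes, and Pdk4, a kinase that shuts pyruvate dehydrogenase, 3.41 to 8.28. Of 12 genes of pyruvate use, 4 were higher and 7 lower in cumulus cells at 2 months. The oocyte factors Gdf9 (log2 difference -10.71, SE 0.15), Bmp15 (-15.79, SE 0.17) and Fgf8 (-10.04, SE 0.23) were lower in cumulus cells at 2 months.

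To ask what hyperovulation did to these genes, the 2-month mice that had it were compared with 2moNoH mice. In cumulus cells 9 of the 10 members were higher after hyperovulation, against 6.16% of all 24161 genes tested. The median log2 fold change of the members was 0.88, and that of all genes -0.04. Slc2a1 had the largest change: its cumulus libraries ran from 37.3 to 239 CPM (median 83.3) without hyperovulation (n = 32) and from 43.5 to 354 CPM (median 195) with it (n = 24), a log2 fold change of 1.0 (SE 0.17, adjusted p = 2.78e-05 by edgeR). The groups overlapped. Of the 5 mouse means with hyperovulation, 3 (194 to 311 CPM) were clearly above all 8 without it (61.0 to 141 CPM), and the other 2 were 105 and 141 CPM.

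Of the 9 enzymes, 8 rose. Ldha ran from 436 to 2398 CPM (median 1003, mean 1163 ± 571) without hyperovulation and from 585 to 2709 CPM (median 2217, mean 2097 ± 463) with it. It rose 1.8-fold (log2 0.85, SE 0.15, adjusted p = 9.14e-05 by edgeR). Pgk1 rose 1.9-fold (0.93, SE 0.17), from a mean of 98.9 ± 55.8 to 189 ± 43.9 CPM. Tpi1 (0.92), Pkm (0.91), Aldoa (0.88), Pfkl (0.87), Pfkp (0.73) and Hk2 (0.63) rose as well, with SEs of 0.12 to 0.18 and adjusted p of 8.45e-05 to 0.000397. Hk1, the member with fewest reads, had a log2 fold change of 0.57 (SE 0.21, adjusted p = 0.0666), which did not pass. Ranges of the 2 groups overlapped for all 10 members.

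The libraries of the second set carry 1 of 2 codes at the start of their names, B1 or B2. The labels do not say what the codes mean, and they may be plates. Every class has mice under both. The 8 2moNoH mice split by this code: the 4 under B1 had mean Aldoa levels of 640 to 904 CPM and the 4 under B2 323 to 463 CPM, and mean Ldha levels of 1153 to 1711 and 716 to 1033 CPM. The 2 hyperovulated mice under B2 were also below the 3 under B1 for Aldoa (768.5 and 909 against 1199 to 1312 CPM). Within B1 (16 libraries against 16), 9 members were higher, by 0.57 (Ldha) to 0.90 (Slc2a1), and Hk1 was 0.52. Within B2 (8 against 16), 6 were higher (Aldoa 1.07, Ldha 1.13, Pfkl 1.09, Pkm 1.05, Slc2a1 0.79 and Tpi1 1.12), and Hk1 (0.37), Hk2 (0.38), Pfkp (0.64) and Pgk1 (0.89) did not pass. With the code as a covariate 9 were called. When counts were summed per mouse (5 against 8 mice), Pgk1 (0.92, adjusted p = 0.0128) and Pfkp (0.75, adjusted p = 0.0325) stayed called, and the others had log2 fold changes of 0.54 to 1.0 and adjusted p of 0.0701 to 0.354. Without any 1 mouse, 9 or 10 members were called.

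**Figure D4:**
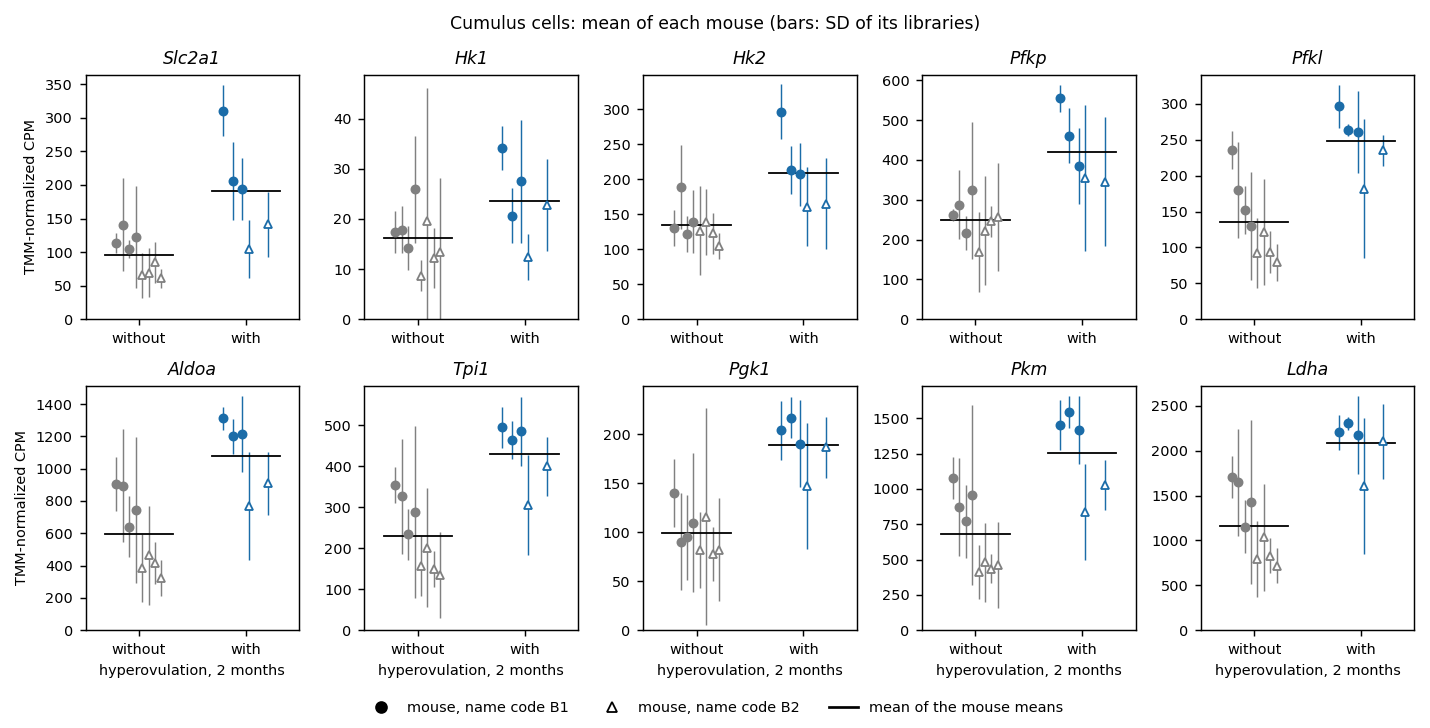
Mean TMM-normalized CPM of each mouse's cumulus libraries (vertical axis, from 0, bars are the SD of its libraries and are cut at 0) at 2 months without (grey, 8 mice) and with hyperovulation (blue, 5 mice), for the 10 genes. Filled circles are mice under name code B1, open triangles those under B2, and black lines the mean of the mouse means: for Aldoa the B1 mice lie at 640 to 904 without and 1199 to 1312 with hyperovulation, and the B2 mice at 323 to 463 and 768.5 to 909.

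The summed cumulus markers moved with the same contrast, from 9250 ± 2400 CPM (range 4910 to 13500) without hyperovulation to 12400 ± 1940 CPM (8510 to 15100) with it, and 4 of the 10 markers were called higher and 1 lower. The summed theca and stroma markers were 22.1 ± 28 and 13.2 ± 10.4 CPM, and the oocyte markers 9.75 ± 6.23 and 6.62 ± 3.69 CPM. The part of these in the members' change was not tested.

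In the oocytes of the same complexes 0 of 10 members were called, against 0.0299% of genes called in either direction. Only Hk2 (-0.36, SE 0.18) had an unadjusted p under 0.05 in edgeR, and DESeq2 called 0. Log2 fold changes of the other members lay between -0.13 (Pgk1) and 0.23 (Ldha). For Slc2a1 the interval of the change in oocytes was -0.02 to 0.16 and for Pkm -0.06 to 0.11, while for Ldha it was -0.41 to 0.86. Within name code B2 Ldha in oocytes was called, at 2.45 (adjusted p = 0.00385), and within B1 it was -0.76 (adjusted p = 0.373). The difference between the cell types' responses was tested as an interaction, which called a higher response in cumulus cells for 8 members, against 1.91% of genes: Slc2a1 0.93 (SE 0.18), Hk2 0.99 (0.22), Pfkp 0.83 (0.19), Pfkl 0.85 (0.21), Aldoa 0.88 (0.19), Tpi1 0.86 (0.20), Pgk1 1.06 (0.22) and Pkm 0.88 (0.18), with adjusted p of 0.000181 to 0.00615 by edgeR. Ldha (0.63, SE 0.36, adjusted p = 0.44) and Hk1 (0.55, SE 0.47, adjusted p = 0.716) did not pass. The block on complexes in a paired fit also called 8. Summed per mouse 1 passed (Pgk1 0.99, adjusted p = 0.0316). Within B2 1 passed (Aldoa 0.98, adjusted p = 0.0481) and within B1 8, among which Ldha (1.35, adjusted p = 0.0131) came in and Pfkl (0.63) dropped out. Within B2 the Ldha interaction had the opposite sign (-1.35, adjusted p = 0.21).

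Of the other pathway genes in cumulus cells, 7 of 19 further glycolysis genes rose with hyperovulation and 1 fell, and 4 of 7 pentose phosphate genes, 3 of 10 transporters and 2 of 12 genes of pyruvate use rose with none falling. Slc16a3, the lactate exporter, rose from 62.6 ± 71.3 to 199 ± 87.5 CPM (log2 1.66, SE 0.35, adjusted p = 0.000516 by edgeR). The enolase rows Eno1 (0.80, SE 0.19) and Eno1b (0.83, SE 0.20) rose, and these near-identical genes may share reads. Ldhb fell by 0.70 (SE 0.14), from 140 ± 48.1 to 86.6 ± 48.55 CPM, the opposite direction to Ldha. Myc, a transcription factor that can drive glycolytic genes, fell by 1.25 (SE 0.34), from 47.6 ± 44.8 to 19.6 ± 18.1 CPM. In the interaction, the responses of Pgam1 (0.95), Eno1b (0.91) and Eno1 (0.90) to hyperovulation were higher in cumulus cells than in oocytes, and that of Ldhb (-0.65) was lower.

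To ask what CR did, the CR mice were compared with AL mice of the same age (middle). In oocytes 4 of 10 members were lower under CR, against 14.2% of genes lower and 15.8% higher. Pkm fell by 0.44 on the log2 scale (SE 0.08, adjusted p = 3.44e-05 by edgeR): its oocyte libraries ran from 254 to 521 CPM (median 412) in middle mice (n = 14) and from 156 to 405 CPM (median 303.5) in CR mice (n = 27). Slc2a1 fell by 0.25 (SE 0.06, adjusted p = 0.00129), from 137 ± 23.7 to 116 ± 11.8 CPM. Aldoa fell by 0.42 (SE 0.12, adjusted p = 0.00559), from 199 ± 50.9 to 150 ± 47.4 CPM, and Pfkp by 0.55 (SE 0.19, adjusted p = 0.0212), from 35.9 ± 21.5 to 24.8 ± 9.07 CPM. The groups overlapped for all 4. Markers of other cells moved in the same contrast: the summed cumulus markers were 741 ± 860 CPM (99.3 to 2960) in middle and 519 ± 578 CPM (110 to 2190) in CR oocytes, with 2 of 10 called higher and 1 lower and a median log2 fold change of -0.44. Of the theca and stroma markers 5 of 7 were lower and 1 higher (summed level 0.58 to 85.3 CPM in middle and 0.40 to 14.0 CPM in CR oocytes), and of the oocyte markers 4 of 13 were lower and 2 higher. Across the 73 oocytes of the first set, Spearman's rho with the cumulus marker share was 0.64 for Aldoa, 0.613 for Pfkp, 0.13 for Pkm and -0.17 for Slc2a1. The part of these in the CR result was not tested beyond the alternatives given next. The mouse means of Slc2a1 in oocytes were 115 to 116 CPM in the 3 CR mice and 125 to 146 CPM in the 4 middle mice.

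The CR calls rested on few mice. Summed per mouse, none of the 4 passed (adjusted p of 0.0691 to 0.367). Without mouse CR3, Pfkp (-0.43, adjusted p = 0.205) and Aldoa (-0.32, adjusted p = 0.141) were lost, and without mouse Middle1 Pfkp was (-0.32, adjusted p = 0.23). Without mouse Middle2 Hk2 came in (-0.89, adjusted p = 0.0211) and without CR2 Tpi1 (-0.44, adjusted p = 0.0063). Pfkp was -0.10 (adjusted p = 0.628) without the oocytes over 5% cumulus RNA, a set that holds 4 middle and 4 CR oocytes. A CR call was also lost with the cumulus marker share as a covariate. With the complex that was left out, whose oocyte library is mostly cumulus RNA, 8 members were lower. The CR oocyte libraries were deeper (median total 3578882 against 2332126), and thinned to 65.2% they still gave 4 calls. Removing each library's trend with gene length and GC content left 2 calls, Pkm and Pfkp, with Slc2a1 at -0.15 (adjusted p = 0.0814) and Aldoa at -0.23 (adjusted p = 0.218).

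In cumulus cells of the same mice 0 of 10 members were called under CR, against 3.6% of genes. Slc2a1 (-0.61, SE 0.20, adjusted p = 0.0799) and Pfkp (-0.57, SE 0.24, adjusted p = 0.192) had an unadjusted p under 0.05 in edgeR, and DESeq2 called 1 lower, Slc2a1 (-0.66, adjusted p = 0.0303), and edgeR called it without mouse Middle4 (-0.78, adjusted p = 0.0274). The interaction of diet and cell type called 0 (12.7% of genes), with 1 member, Aldoa (0.47, SE 0.22), at an unadjusted p under 0.05 and 0 by DESeq2, so a different response of the cell types was not detectable for the members. Among the other genes in oocytes, Pdp2 (1.11, SE 0.14), a pyruvate dehydrogenase phosphatase, and Pdk3 (0.77, SE 0.10), one of its kinases, rose under CR, as did Ldhc (0.94, SE 0.37). Slc2a12, another glucose transporter, fell by 1.17 (SE 0.18), Fgf8 by 0.99 (SE 0.08) and Pgam1 by 0.93 (SE 0.30). Of 12 genes of pyruvate use 7 rose and 2 fell, and of 16 further glycolysis genes tested 3 rose and 4 fell.

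**Figure D5:**
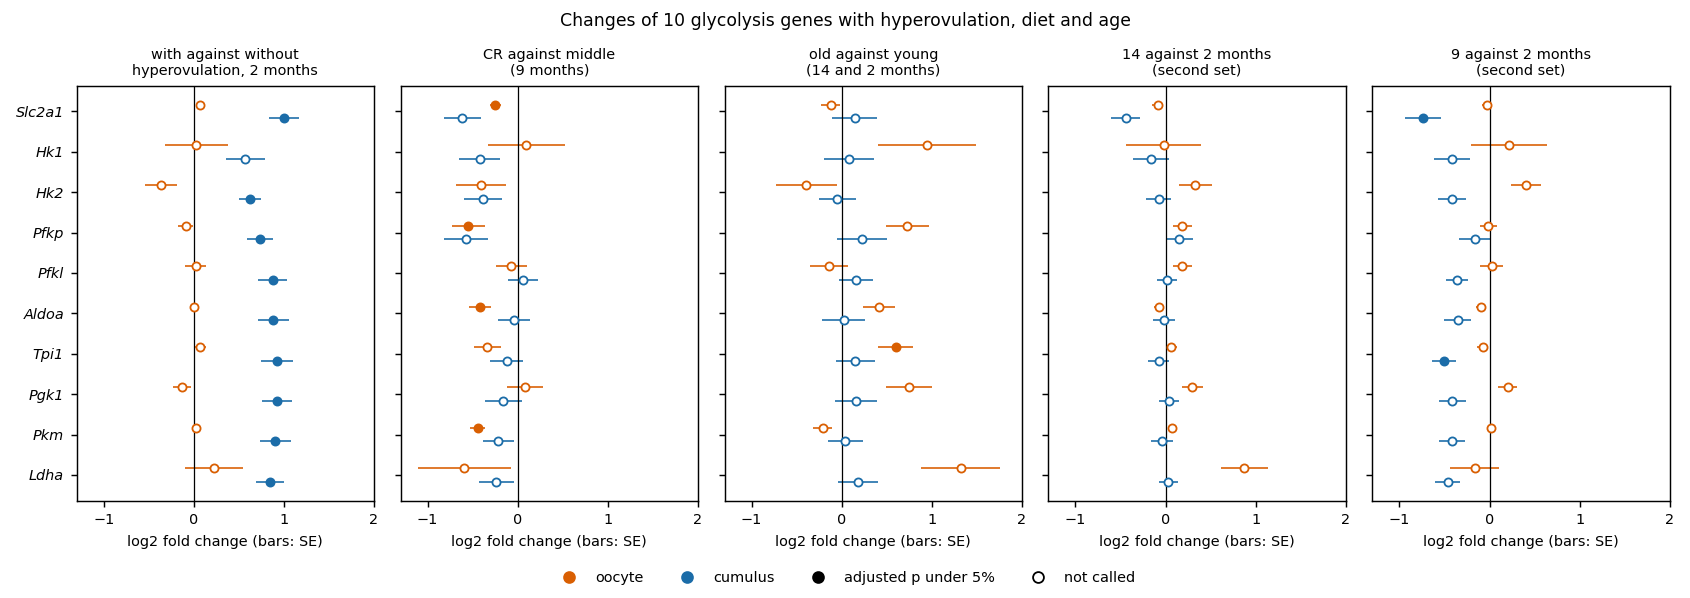
Log2 fold change (horizontal axis, bars are standard errors) of the 10 genes (vertical axis) in oocytes (orange) and cumulus cells (blue) for 5 comparisons, with filled points where the adjusted p was under 5%. Hyperovulation has 9 filled points, all in cumulus cells and at 0.63 to 1.0, CR has 4 in oocytes at -0.55 to -0.25, old against young has 1 (Tpi1 in oocytes), 9 against 2 months has 2 in cumulus cells, and 14 against 2 months has none.

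Few members were called between ages. From young to middle mice 0 of 10 were called in oocytes, where 0% of 22958 genes were, and 0 in cumulus cells, where 1.46% were. No member had an unadjusted p under 0.05 in edgeR in either, and DESeq2 called 0 in both. Ldha in cumulus cells, for example, averaged 1919 ± 685 CPM over 15 young libraries, 1808 ± 606.5 over 15 middle libraries and 2198 ± 822.5 over 16 old ones. From young to old mice 0 of 10 were called in cumulus cells (3.96% of genes), with 0 at an unadjusted p under 0.05 and 0 by DESeq2, and log2 fold changes of -0.05 (Hk2) to 0.22 (Pfkp).

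In old oocytes 1 member was called higher than in young ones, against 4.4% of genes. Tpi1 rose by 0.60 (SE 0.19, adjusted p = 0.0477), from 54.0 ± 22 (range 28.3 to 114, n = 16) to 79.4 ± 33.9 CPM (34.8 to 152, n = 16). Pfkp (0.73, adjusted p = 0.0507), Ldha (1.32, adjusted p = 0.0546) and Pgk1 (0.75, adjusted p = 0.0584) fell just short of the threshold, and DESeq2 called 4. The oocytes over 5% cumulus RNA were 3 of 16 young and 7 of 16 old, and 3 of the 10 cumulus markers were called higher in old oocytes. Without the oocytes over 5% cumulus RNA 3 members were called. With the cumulus marker share as a covariate 0 were, and Tpi1 was 0.35 (adjusted p = 0.208). Tpi1 was also lost without the label that joins 2 old mice (0.22, adjusted p = 0.933), without mouse Young1 (0.55, adjusted p = 0.151), without mouse Young2 (0.73, adjusted p = 0.282) and when summed per mouse (0.49, adjusted p = 0.581), and without mouse Old3 5 members were called (Tpi1 0.75, Pfkp 0.84, Aldoa 0.57, Pgk1 0.97 and Ldha 1.54). The interaction with cell type called 0 (4.74% of genes), with 1 at an unadjusted p under 0.05 (Ldha, -1.12) and 0 by DESeq2.

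In the second set, from 2 to 4 months 0 of 10 members were called in oocytes (0.0126% of genes) or in cumulus cells (0.519%), with 0 at an unadjusted p under 0.05 in either and 0 by DESeq2. All 10 log2 fold changes in cumulus cells were below 0, from -0.35 (Slc2a1) to -0.17 (Hk1). From 2 to 9 months Slc2a1 (-0.73, SE 0.20, adjusted p = 0.0422) and Tpi1 (-0.51, SE 0.14, adjusted p = 0.042) fell in cumulus cells, against 0.404% of genes lower, and all 10 fold changes were below 0, 9 with an unadjusted p under 0.05. Slc2a1 was 192 ± 77.9 CPM at 2 months (mouse means 105 to 311) and 114 ± 55.7 CPM at 9 months (mouse means 82.0 to 147), with wide overlap. Neither call held when counts were summed per mouse (adjusted p of 0.434 and 0.402), with the name code as a covariate (0.0605 and 0.0712), or within either code, where 0 were called. Both were lost without any 1 of the mice 2mo1, 2mo2, 2mo34, 9mo23 and 9mo24, without 2mo36 or 9mo21 only Slc2a1 was called (-0.81 and -0.87), and without 2mo35 6 were. Oocytes gave 0 calls at 9 months (0.16% of genes), with 1 member at an unadjusted p under 0.05 (Hk2, 0.40, SE 0.17) and 0 by DESeq2.

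From 2 to 14 months 0 members were called in oocytes (1.14% of genes) or in cumulus cells (1.7%), and DESeq2 called 0 in both. Ldha in oocytes was 13.3 ± 10.1 CPM at 2 months and 25.5 ± 15.4 CPM at 14 months (log2 0.87, SE 0.26, adjusted p = 0.0764), and it was called without mouse 2mo36 (1.11, adjusted p = 0.0135) and within name code B1 (1.5, adjusted p = 0.00417). The median cumulus marker share in these oocytes was 0.583% at 2 months and 0.856% at 14 months. Nr5a2 made up much of the marker sum, on average 65.5 of 102 CPM at 2 months and 68.7 of 152 CPM at 14 months. Of 9 cumulus markers tested in these oocytes, 3 were called higher at 14 months and 0 lower, with a median log2 fold change of 0.66. The part of cumulus RNA in the Ldha change was not tested. Pgk1 in oocytes (0.30, SE 0.12) also had an unadjusted p under 0.05. Slc2a1 in cumulus cells was -0.44 (SE 0.16, adjusted p = 0.162), the only member with an unadjusted p under 0.05 there, and it was called without mouse 2mo35 (-0.57, adjusted p = 0.0203). Over libraries, several of which share a mouse, the 95% interval in cumulus cells was -0.18 to 0.24 for Ldha, -0.26 to 0.22 for Aldoa, -0.15 to 0.45 for Pfkp and -0.55 to 0.23 for Hk1. The interaction called 0 (0.745% of genes), with Ldha (-0.88) and Slc2a1 (-0.39) at an unadjusted p under 0.05, 0 by DESeq2, and Ldha called within B1 (-1.49, adjusted p = 0.00193). Of the other pathway genes, Pdk4 was called lower in cumulus cells in 3 of the 5 age comparisons: its log2 fold change was -1.15 (SE 0.30) in middle and -1.81 (SE 0.26) in old against young mice, and -1.21 (SE 0.23) at 14 against 2 months. It was -0.27 (SE 0.21, adjusted p = 0.575) at 9 and -0.17 (SE 0.23, adjusted p = 0.813) at 4 against 2 months, neither called.

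Among cumulus libraries of all classes the members rose and fell together. Pearson's r of each member's log2 CPM with the mean of the other 9 was 0.914 to 0.975 in the first set (71 libraries) for 8 members, 0.763 for Hk1 and 0.796 for Hk2. In the second set (128 libraries) it was 0.899 to 0.967 for 7 members, 0.859 for Pfkp, 0.819 for Hk2 and 0.689 for Hk1. These libraries share mice, name codes and scaling, and the values are a description.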

How the data were processed

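Full-length total RNA of single oocytes and of cumulus cell pools was sequenced by RamDA-seq, without molecular identifiers. The authors trimmed reads with Fastq-mcf, aligned them to GRCm38 with HISAT2 (2.0.5) and counted them with featureCounts (1.5.1) on GENCODE vM15. Reads mapping to several places were shared as fractions, so the deposited values are expected counts, of which 36.8% (first set) and 35.1% (second) of those above 0 were not whole. The authors also deposited RPKM, used here only for gene lengths; those of CR libraries could be rebuilt from the counts within 1% for 7.9% of values, and the others for 100%.

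Groups came from the labels. Expected counts were rounded and tested with edgeR (4.0.16, R 4.3.3; TMM, glmQLFit and glmQLFTest) on genes counted in 5 or more of the libraries compared, with Benjamini-Hochberg adjustment and a threshold of 5%. Libraries were the units, and several share a mouse, so p-values measure the spread between libraries; counts summed per mouse were an alternative. A standard error is the log2 fold change over the square root of F, and intervals are 95%. The tests were checked on simulated data. The members and lists were chosen with earlier results of these data known. From the other lists, up to 3 called genes in each direction with the largest fold among those averaging at least 8 CPM were named. Oocyte and cumulus libraries of a complex are paired by the complex in their labels, and this pairing entered as a replicate block in an alternative. Other alternatives were DESeq2 (1.42.0), other filters, total counts in place of TMM, leaving out each mouse, the code B1 or B2 in the names of the second set (not explained in the labels), cumulus marker share, a length and GC trend, thinned CR libraries and all deposited libraries. Leaving out oocytes over 5% cumulus RNA and fits within each code were chosen after seeing the data. Promoters came from RefSeq (GRCm38.p6). Tables were made with Python 3.11.15 and pandas 2.3.3, and figures with matplotlib 3.10.9.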

Additional observations from a re-analysis of the deposited data

Results flagged for a closer look

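For 8 members the response to hyperovulation differed between cumulus cells and oocytes of 2-month mice, by a test of the interaction in edgeR. The cumulus response minus the oocyte response, on the log2 scale, was 0.93 for Slc2a1, 0.99 for Hk2, 0.83 for Pfkp, 0.85 for Pfkl, 0.88 for Aldoa, 0.86 for Tpi1, 1.06 for Pgk1 and 0.88 for Pkm. With counts summed per mouse 1 of these passed, and within name code B2 1 passed.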

How the results depend on the processing

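Counts of members called changed as follows. With counts summed per mouse they were 0 of 10 for old against young oocytes (1 in the reported fit), 0 for CR oocytes (4), 0 for 9-month cumulus cells (2), 2 for hyperovulation in cumulus cells (9) and 1 for its interaction (8). For old against young oocytes they were 4 with DESeq2, 0 with no filter, 4 with filterByExpr, 0 with the cumulus marker share as a covariate, 2 with the length and GC trend removed and 3 without oocytes over 5% cumulus RNA. For CR they were 2 in oocytes with the length and GC trend removed and 8 with all deposited libraries, and in cumulus cells 1 each with DESeq2, filterByExpr and the length and GC trend removed (0 reported). In CR oocytes Pfkp was lost without oocytes over 5% cumulus RNA. The cumulus marker share as a covariate lost 2 oocyte calls, Tpi1 in old mice and a CR call. Over all comparisons DESeq2 newly called 8 values of single members, not all listed here. For 9-month cumulus cells they were 0 with the name code B1 or B2 (whose meaning the labels do not give) as a covariate and 0 within each code. Within B1 they were 1 for 14-month oocytes and 1 for the 14-month interaction, and within B2 1 for hyperovulation in oocytes (0 reported in each) and 1 for its interaction. The cause was not tested.

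Leaving out 1 mouse at a time gave 0 to 5 for old against young oocytes, 2 to 5 for CR oocytes, 0 to 1 for CR cumulus cells, 0 to 6 for 9-month cumulus cells, 0 to 1 for 14-month oocytes, 0 to 1 for 14-month cumulus cells and 9 to 10 for hyperovulation in cumulus cells. The replicate block on complexes called 9 or 10 members in each cell-type comparison and 8 in the hyperovulation interaction, and 0 in the other 3 interactions. Slc2a1 in CR turned from -0.65 to 0.0092 under total counts. Of the values of single members under all alternatives, 2829 kept their side of the threshold, 64 fell short of it, 47 newly passed and 1 reversed. The 2829 include uncalled values whose sign turned, such as Slc2a1 in young, middle, old and 9-month mice under total counts. Depth limits Hk1 most, which had no read in 7 of 24 oocytes at 2 months.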

Other observations

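The genes whose log2 CPM followed the mean of the 10 members most closely across cumulus libraries, of 8915 genes ranked, were Gm6560 (Pearson's r of 0.964 in the first set, 71 libraries, and 0.958 in the second, 128 libraries), Eno1b (0.967 and 0.958), Eno1 (0.968 and 0.957), Gm4735 (0.969 and 0.952) and Slc16a3 (0.949 and 0.948). The enolase and Gm rows may share reads with near-identical genes, and the libraries share mice and name codes.

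A 4-month mouse, 4mo26, had the lowest mean of the 8 mice of that age in cumulus cells, 394 CPM for Aldoa and 732 CPM for Ldha, where the highest means were 1358 and 2467 CPM. This mouse is under name code B2. The 4-month cumulus libraries under B2 had lower means than those under B1 for both genes (Aldoa 734 against 1077 CPM, Ldha 1512 against 1877 CPM).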
